A study of Mus musculus with 18 samples.

Results

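The comparison concerns mouse embryoid bodies in which a Flag-tagged copy of mesogenin 1 (Msgn1) was switched on, followed from 24 h to 48 h of induction. Its members are 6 of the 18 expression arrays of the series, chosen by their labels: 3 arrays of induced cultures at 48 h and 3 at 24 h. The effect of time was taken as the later minus the earlier group mean. Both groups came from the same A2lox embryonic stem cell line of strain 129P2 (formerly 129/Ola), which carries the Flag-Msgn1 cassette under doxycycline control. The stem cells were kept on mitomycin-treated mouse embryonic fibroblasts with LIF, differentiated as embryoid bodies in medium with ascorbic acid, and given doxycycline at 1 µg/ml from day 2. The control cultures were the same line without doxycycline at the same times, 3 arrays per time, and no group received doxycycline without the cassette. Cassette and drug were therefore common to both induced groups, and within them the age of the culture and the length of induction cannot be told apart. The 12 h induced arrays, also 3, are shown only as levels. Both 12 h groups also entered the estimate of spread, the filter on dim probe sets and the choice of 1 probe set per gene. The line is a single engineered line. The titles call the replicates biological, without saying whether they came from separate differentiations, so the p-values measure the spread between these arrays.

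Msgn1 encodes a helix-loop-helix regulator made in the presomitic mesoderm, from which somites form, and it acts downstream of Wnt signalling and Tbx6. In the gastrulating embryo, epiblast cells lose pluripotency and epithelial junctions in the primitive streak and leave it as mesoderm or definitive endoderm. Wnt, Fgf and Nodal signals favour streak and paraxial fates, whereas Bmp signals favour lateral plate, cardiac and extraembryonic mesoderm. Embryoid bodies pass through a comparable sequence in culture, with all cell types mixed in 1 RNA sample. A lower signal can therefore come from fewer cells of a type or from less RNA per cell, and these cannot be told apart here.

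Each array gave 1 signal value per probe set in arbitrary units, with a 2% trimmed mean of 150 on every array used and a median between 19.9 and 21.9. Tests were made on log2(signal + 32), so a change in a dim gene is understated, and every fold below is on this scale. Replicate arrays correlated at 0.990 to 0.993 at 24 h and at 0.992 to 0.993 at 48 h, against 0.980 to 0.985 between the times. The ratio of 3′ to 5′ probe sets for Actb, a measure of RNA integrity, ranged from 1.54 to 2.10 at 24 h and from 1.56 to 1.80 at 48 h, which overlapped. The number of arrays, 3 per group, limits the precision. Markers of embryoid bodies, the labelled material, were present at both times. Of the pluripotency genes, mean signal for Pou5f1 was 4394 ± 241 (SD, n = 3) at 24 h and 3149 ± 254 at 48 h, and for Nanog it was 1366 ± 43.7 and 1278 ± 135. Of the mesoderm genes, Tbx6 went from 40.4 ± 7.78 to 76.7 ± 10.3 and Pdgfra from 209.6 ± 35.3 to 549 ± 5.47.

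The Msgn1 probe set read 56.7, 52.9 and 67.3 at 24 h and 53.5, 56.3 and 44.5 at 48 h. The 2 groups overlapped, and the log2 difference of -0.12 ± 0.116 (standard error, SE) did not pass the test (adjusted p = 0.481). At 12 h of induction the mean was 70.6 ± 6.07 (SD, n = 3), and in uninduced cultures it was 11.2 ± 5.60 at 24 h and 6.14 ± 2.21 at 48 h. All 6 induced arrays lay above the uninduced means, and the log2 difference between the induced times had no called direction. Whether this probe set reads the Flag-tagged transcript or the endogenous one is not given in the sources used here.

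Of 14282 genes tested, 3691 (25.8%) differed between 24 h and 48 h of induction at a limma p-value under 0.05 after Benjamini-Hochberg adjustment over all genes, which is what called means below. The called genes were divided almost evenly, with 1854 higher at 48 h (13.0%) and 1837 lower (12.9%). The changes of at least 2-fold numbered 168 upward and 141 downward. The induced arrays of the 2 times did not overlap in 2723 genes higher at 48 h (19.1%) and 2763 lower (19.3%). The median change of all genes was -0.0085 on the log2 scale. For comparison, the uninduced cultures had 1830 genes higher (12.8%) and 1676 lower (11.7%) over the same interval. Genes called higher in both courses numbered 1086, which is 58.6% of the induced and 59.3% of the uninduced list. The shared falls numbered 1008, or 54.9% and 60.1%. The test of the difference between the courses called 444 genes (3.11%). The log2 change was higher under induction than without it in 209 (1.46%) and lower in 235 (1.65%). A lower change can be a smaller rise. Of the 209, 171 were also called higher in the induced course, and of the 235, 157 were also called lower.

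The largest rises under induction were in regulators of early and lateral mesoderm, in Bmp ligands and in a few growth genes. Mesp1, a helix-loop-helix regulator of the earliest cardiac and cranial mesoderm, led with a 13.3-fold increase. Msx2, Hand2, Foxf1, Bmp2 and Bmp4, genes of the lateral plate and of Bmp signalling, rose between 5.21-fold and 7.37-fold. The 15 largest rises and falls were taken from called genes whose arrays did not overlap between the times. The rises were 4.97-fold to 13.3-fold, and all of their adjusted p-values were at or below 7.85e-08.

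**Figure D1:**
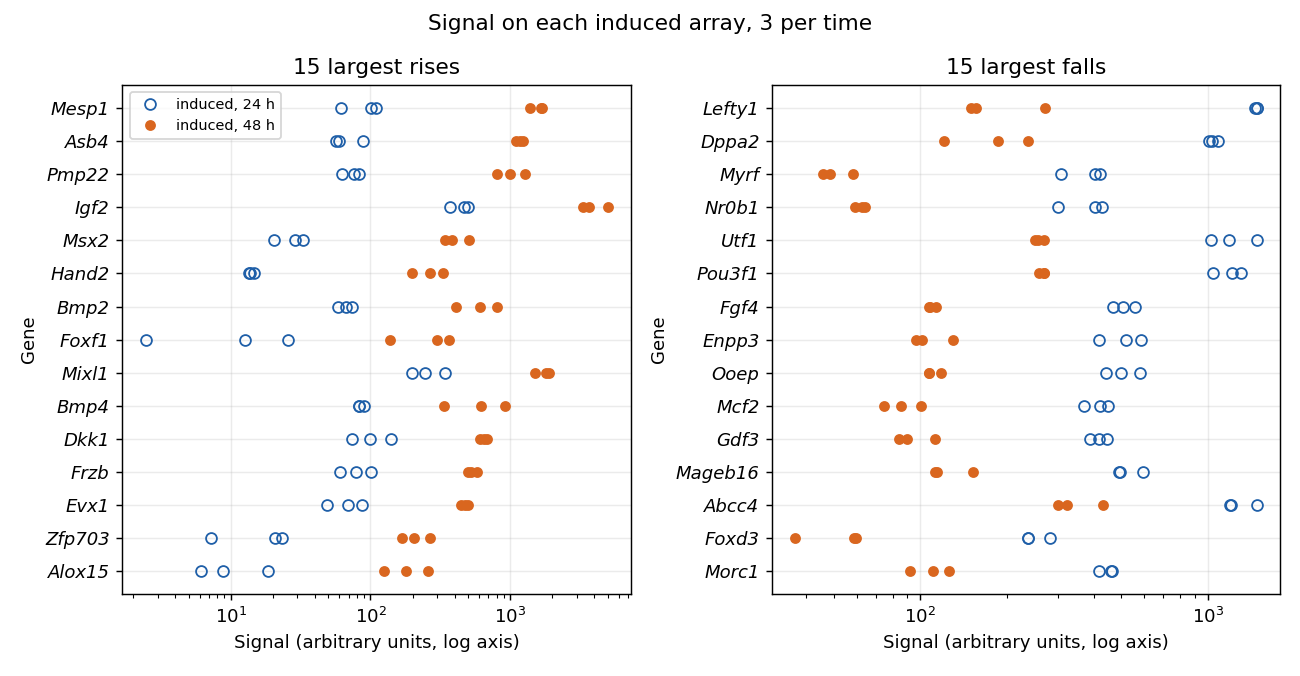
Signal on a log axis for the 15 genes with the largest rises (left) and the 15 with the largest falls (right), 1 point per induced array, open circles for 24 h and filled circles for 48 h, 3 arrays each. Only genes without overlap between the times were eligible. Foxf1 ranges from 2.45 to 25.5 at 24 h while Lefty1 lies between 1453 and 1485.

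Mesp1 signal was 61.5, 109 and 101 at 24 h and 1653, 1389 and 1695 at 48 h. All arrays at 48 h lay far above those at 24 h, with a log2 change of 3.74 ± 0.165 (SE, adjusted p = 1.03e-12). The uninduced cultures showed a rise of 3.44, and the difference of 0.30 ± 0.233 was not called (adjusted p = 0.652). Mixl1, a homeobox gene of the primitive streak, went from 199.6, 244 and 342 to 1500, 1802 and 1901, a log2 change of 2.61 ± 0.188 (adjusted p = 7.74e-10). Its rise was 3.54 without doxycycline. The difference for Mixl1, -0.93 ± 0.266, narrowly missed the threshold (adjusted p = 0.0625). Both streak genes were thus higher at 48 h in either culture. Evx1, a homeobox gene of the posterior streak, read 48.7, 69.4 and 87.6 and then 442, 474 and 502, with no overlap and a 5.08-fold change.

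Hand2, a helix-loop-helix regulator of heart and limb mesenchyme, was near the floor at 24 h with 13.6, 14.7 and 13.7, and reached 329, 198 and 268 at 48 h. Foxf1, a forkhead gene of splanchnic lateral plate mesoderm, read 2.45, 12.6 and 25.5 and then 367, 137 and 299. Both genes were therefore switched from the dim end of the array to clearly measurable levels on all 3 later arrays. Their changes were alike on the log2 scale, at 2.66 ± 0.157 for Hand2 (adjusted p = 3.78e-11) and 2.66 ± 0.213 for Foxf1 (adjusted p = 3.78e-09). Msx2, a homeobox target of Bmp signalling, went from 33.1, 28.8 and 20.4 to 506, 342 and 380.5, a log2 change of 2.88 ± 0.145 (adjusted p = 3.90e-12). At 12 h the mean induced signals were 5.16 for Hand2, 20.9 for Foxf1 and 22.7 for Msx2, close to their 24 h values. A second kept probe set of Hand2 was not called.

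Bmp4, the ligand that patterns ventral and extraembryonic mesoderm, read 90.5, 82.4 and 83.2 at 24 h and 914, 336 and 622 at 48 h. Bmp2, a related ligand, read 66.7, 58.3 and 73.6 and then 806, 412 and 611. The later arrays lay above all earlier ones for both ligands but were spread widely among themselves. The log2 changes were 2.38 ± 0.232 for Bmp4 (adjusted p = 7.85e-08) and 2.66 ± 0.154 for Bmp2 (adjusted p = 2.98e-11). In these genes replicate 1 was the highest and replicate 2 the lowest at 48 h. The same order held in 9 of the 15 largest rises, in 594 of the genes called higher (32%) and in 20.1% of all genes tested. Its source was not tested.

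The genomic sequence upstream of 4 of these genes is shown because they include the largest rise and the Bmp and lateral plate genes on which the comparison with uninduced cultures turns. Basic helix-loop-helix factors such as Msgn1 bind E-boxes, written CANNTG, which read the same on both strands. Each line gives the 250 bases before the start of the RefSeq gene in build GRCm38.p6, from 5′ to 3′ on the gene's strand, with E-boxes in capitals. Mesp1 is at chr7:79793591-79793840 on the minus strand, Msx2 at chr13:53472781-53473030 on the minus strand, Hand2 at chr8:57320733-57320982 on the plus strand and Bmp4 at chr14:46390670-46390919 on the minus strand.
Mesp1: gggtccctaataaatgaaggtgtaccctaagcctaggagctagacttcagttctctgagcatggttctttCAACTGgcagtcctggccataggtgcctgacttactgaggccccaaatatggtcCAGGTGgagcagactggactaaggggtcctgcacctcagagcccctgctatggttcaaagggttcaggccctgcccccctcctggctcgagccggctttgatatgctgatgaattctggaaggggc
Msx2: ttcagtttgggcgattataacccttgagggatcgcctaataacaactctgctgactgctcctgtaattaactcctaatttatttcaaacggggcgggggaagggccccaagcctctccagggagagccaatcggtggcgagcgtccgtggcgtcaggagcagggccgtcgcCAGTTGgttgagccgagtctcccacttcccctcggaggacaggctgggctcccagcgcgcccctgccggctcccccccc
Hand2: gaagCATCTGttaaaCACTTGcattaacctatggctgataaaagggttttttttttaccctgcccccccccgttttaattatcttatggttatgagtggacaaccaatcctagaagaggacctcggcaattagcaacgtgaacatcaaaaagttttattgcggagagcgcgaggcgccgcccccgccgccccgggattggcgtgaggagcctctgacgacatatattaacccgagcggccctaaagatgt
Bmp4: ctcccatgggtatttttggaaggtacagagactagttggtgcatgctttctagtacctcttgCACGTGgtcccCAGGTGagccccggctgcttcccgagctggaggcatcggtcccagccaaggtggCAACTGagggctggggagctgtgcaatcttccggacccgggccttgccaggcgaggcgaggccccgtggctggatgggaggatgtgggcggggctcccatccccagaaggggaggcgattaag
The Mesp1 and Hand2 windows held 2 E-boxes each, that of Msx2 held 1 and that of Bmp4 held 3. Such a match is common, since 66.2% of 32851 windows of this length held at least 1. The count describes the letters only, and binding was not measured.

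Other large rises lay in growth and membrane genes. Igf2, the imprinted insulin-like growth factor, went from 368, 465 and 498 at 24 h to 4990, 3326 and 3650 at 48 h, a log2 change of 3.07 ± 0.141 (adjusted p = 1.84e-12). Asb4, an imprinted gene for a ubiquitin ligase subunit of vascular progenitors, went from 59.7, 56.4 and 87.9 to 1179, 1106 and 1237. That is 12.2-fold, with tightly grouped arrays at 48 h (log2 change 3.60 ± 0.129, adjusted p = 4.43e-14). Pmp22, a tetraspan membrane protein best known from myelin, read 62.2, 76.8 and 82.1 and then 1284, 808 and 1006, a 9.94-fold rise. None of the 3 genes had overlapping arrays, which their selection required. The Wnt antagonists Dkk1 and Frzb rose 5.11-fold and 5.09-fold, Zfp703, a zinc-finger repressor, 5.03-fold, and the lipoxygenase Alox15 4.97-fold. At 24 h the group means of Hand2, Foxf1, Msx2, Zfp703 and Alox15 lay below the offset of 32, so their folds are most understated.

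The largest falls were in genes of pluripotent and epiblast cells. Lefty1, a feedback inhibitor of Nodal signalling, was the steepest, with 1485, 1478 and 1453 at 24 h and 149.9, 271 and 156 at 48 h. It fell by 2.79 on the log2 scale, with an SE of 0.135 (6.90-fold, adjusted p = 2.26e-12). Dppa2, a chromatin protein of pluripotent cells, fell from 1010, 1033 and 1085 to 121, 237 and 185, or 5.18-fold. Its probe set is of a type that can match more than 1 transcript. Nr0b1, an orphan nuclear receptor of naive cells, went from 404, 301 and 429 to 64.1, 59.0 and 62.7, a 4.33-fold fall. None of these genes overlapped between the times, which their selection required, and the 48 h values of Nr0b1 lay within a few units of each other. The adjusted p-values of the 15 largest falls were at or below 2.39e-10, and their folds ranged from 3.41 to 6.90.

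Epiblast regulators were part of the same decline. Utf1, a chromatin factor of the epiblast, read 1484, 1183 and 1024 and then 251, 269 and 256. Pou3f1, a POU factor of the primed epiblast and early neurectoderm, read 1044, 1215 and 1298 and then 259, 269 and 268. Both kept a tight range at 48 h that lay well under the 24 h arrays, at 4.30-fold and 4.08-fold lower. Foxd3, a forkhead repressor needed to maintain the epiblast, went from 237, 236 and 283 to 36.7, 59.8 and 58.9, a log2 change of -1.77 ± 0.111 (adjusted p = 9.29e-11). Fgf4, the Fgf ligand of pluripotent cells, fell 3.82-fold, and Gdf3, a Nodal-related ligand, 3.54-fold. Further falls were in Myrf, a membrane-bound transcription factor (4.93-fold), in the germline genes Ooep (3.76-fold), Mageb16 (3.53-fold) and Morc1 (3.41-fold), in the ectonucleotidase Enpp3 (3.81-fold), the exchange factor Mcf2 (3.75-fold) and the transporter Abcc4 (3.47-fold).

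Lists of genes by cell type and pathway place these changes among their neighbours. The lists held 771 genes, of which 661 were measured, 62 were below the filter on dim probe sets and 48 had no probe set for that gene alone. Of the 661, 207 were called higher and 130 lower. Against the 25.8% of all genes called, the list counts below are descriptions, because the lists were chosen with earlier results of these data known.

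**Figure D2:**
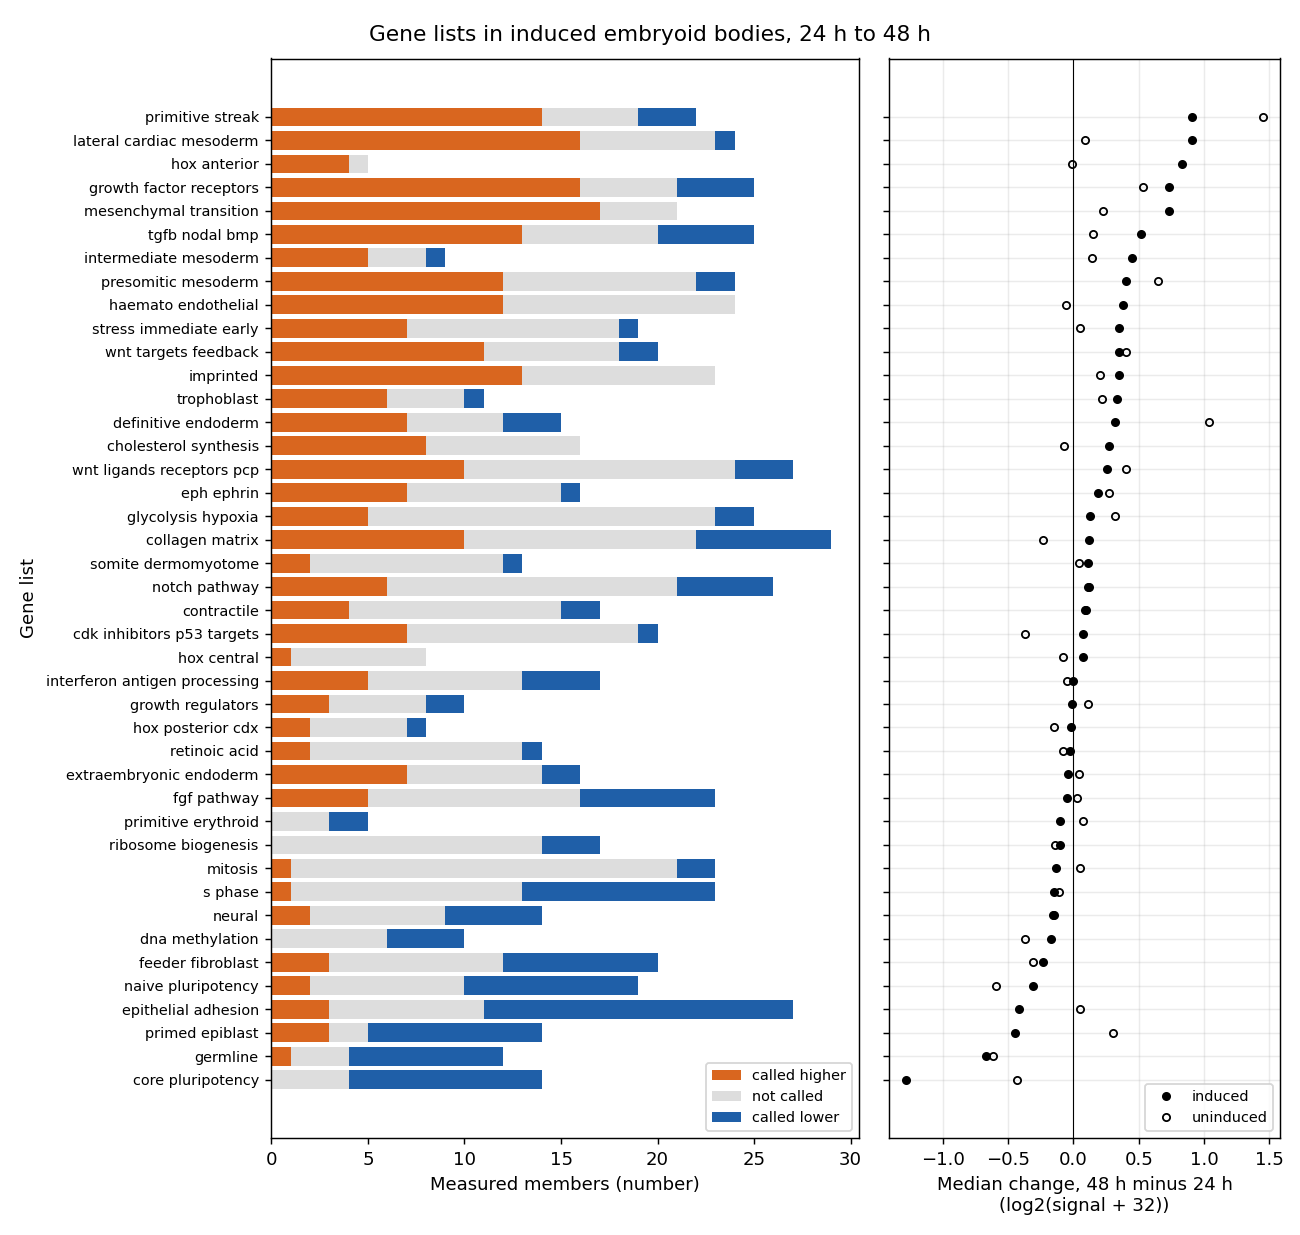
Left, the number of measured members of each gene list called higher, not called or called lower between 24 h and 48 h of induction, 1 bar per list. Right, the median log2 change of the list in induced (filled) and uninduced (open) cultures, from -1.28 for core pluripotency genes to 0.91 for streak and lateral mesoderm genes under induction.

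Of 22 primitive streak genes, 14 rose, 3 fell and 5 were not called, with a median of 0.91 on the log2 scale under induction and 1.45 without doxycycline. The rising members included Mesp1, Mixl1, Dkk1 and Evx1, and those that fell were Fgf4, Gdf3 and Lefty2. Of 24 presomitic mesoderm genes, 12 rose and 2 fell, the latter being Hes6 and Prickle1, with a median of 0.40 under induction and 0.65 without doxycycline, where 13 rose. Cyp26a1, which degrades retinoic acid in the posterior embryo, went from 334, 359.8 and 470.3 to 1776, 1814 and 1822. Rspo3, a Wnt agonist, went from 96.2, 103 and 118 to 596, 497 and 628. The later arrays lay above the earlier ones without overlap in both genes, at log2 changes of 2.14 ± 0.157 and 2.13 ± 0.120. Mesp2, which sets somite boundaries, rose from 24.7, 32.6 and 29.5 to 188, 166 and 228 (1.88 ± 0.111), and Nkd1, a Wnt feedback inhibitor, by 1.51 ± 0.138.

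Of 23 somite genes 13 were measured, 8 being below the filter. The share of the 13 called, 23.1%, was near that of all genes. Of these 13, Foxc1 and Twist1 rose (0.82 and 0.71 on the log2 scale), Tcf15, a helix-loop-helix gene of paraxial mesoderm, fell by 0.80, and 10 were not called. Tcf15 read 213, 209 and 198 at 24 h and 111, 116 and 90.6 at 48 h, so all later arrays were lower. Among 9 intermediate mesoderm genes, 5 rose, led by Lhx1 (1.86) and Bmp7 (0.97), and Wt1 fell by 0.85.

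The lateral plate and cardiac list had 24 measured genes, of which 16 rose, 1 fell and 7 were not called. The median change was 0.91 under induction and 0.09 without doxycycline. Apart from Msx2, Hand2, Foxf1 and Bmp4, the risers included Msx1, Tbx20, Gata6, Isl1, Tbx3, Hand1 and Gata4, all transcription factors of heart-forming or lateral mesoderm. The single fall was in Myh6, a cardiac myosin heavy chain. Of the 10 members whose course differed between the cultures, all 10 moved further up under induction.

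Of 24 blood and endothelial genes, 12 rose and none fell, with medians of 0.38 under induction and -0.06 without it. Kdr, the Vegf receptor of haemangioblasts and endothelium, went from 112, 133 and 144 to 663, 556 and 668, a log2 change of 2.03 ± 0.146 (adjusted p = 7.56e-10). Aplnr, the apelin receptor of migrating mesoderm, went from 475, 666 and 869 to 3836, 2723 and 3182 (4.75-fold). Both sets of later arrays were well apart from the earlier ones. Flt1, another Vegf receptor, and Sox7, an endothelial and endodermal Sox factor, rose by 0.96 and 0.85 on the log2 scale. The summed signal of the list was 2502 to 3131 at 24 h and 6136 to 7623 at 48 h. It rose without doxycycline too, from 1457 to 1567 at 24 h to 3007 to 3972 at 48 h. Much of the rise in both sums was in Aplnr, which averaged 77.5 and 1690 without doxycycline. In those control cultures 5 members of the list were called higher and 5 lower. Primitive red cell genes stayed dim, with 7 of 14 below the filter and a summed signal of 117 to 143 and 85 to 138 for the 5 measured. Klf1 and Gata1 in that list were called lower, by 0.41 and 0.35 on the log2 scale, but at these levels the call was lost when single arrays were left out (adjusted p up to 0.106 for Klf1 and up to 0.182 for Gata1).

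The Bmp, Nodal and Tgf-beta list had 25 measured genes, with 13 higher and 5 lower. Of the higher members, 10 were on the Bmp side, namely the ligands Bmp2, Bmp4, Bmp5 and Bmp7, the modulator Bmper, the feedback inhibitors Smad6 and Bambi, and the target genes Id1, Id2 and Id3. The others were the ligands Tgfb1 and Tgfb2 and the antagonist Fst. Bmper read 31.9, 33.5 and 39.1 and then 311, 181 and 258, a log2 change of 2.05 ± 0.151 without overlap. The lower members were Lefty1, Gdf3, Lefty2, Id4 and Inhba, of which Gdf3 is a ligand and Lefty1 and Lefty2 are inhibitors of the Nodal branch.

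The Wnt targets and feedback genes rose in 11 of 20 cases and fell in 2, Sfrp1 and Sfrp2. Sp5, a direct Wnt target, went from 136, 220.3 and 253 to 748, 945 and 842 (1.93 ± 0.160). Apcdd1, a Wnt inhibitor read by a probe set that can match other transcripts, ranged from 427 to 1318 at 48 h after 163 to 238 at 24 h, with no overlap but a wide spread at 48 h (1.76 ± 0.234). Of 27 Wnt ligands, receptors and planar polarity genes, 16 rose and none fell without doxycycline. Under induction 10 rose and 3 fell. Fzd1 (1.09), Wnt5b (1.08), Wnt3 (1.04) and Wnt2 (0.97) were the largest rises on the log2 scale. Of 26 Notch pathway genes, 6 rose, 5 fell and 15 were not called. Dtx1 and Hes6 fell by 1.26 and 1.15, and the target genes Hey2 and Hes1 rose by 0.92 and 0.81.

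The Fgf list changed in both directions, with 5 of 23 higher and 7 lower. Fgf3 went from 26.6, 40.9 and 41.9 to 201, 136 and 223 (1.66 ± 0.153) and Fgf8, the streak ligand, from 176, 232 and 279 to 613, 822 and 643 (1.48 ± 0.156). Fgf10 rose by 1.03. These ligands rose while Fgf4 and the feedback genes Spry1, Spry2 and Spry4 fell. Of 14 retinoic acid genes, 11 were not called. Cyp26a1 and Meis2 rose (2.14 and 1.74), and the carrier Crabp2 fell by 0.75.

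Hox genes were listed by their position in the clusters. Of 5 anterior genes measured, 4 rose: Hoxb1 (38.8, 53.2 and 46.3 to 168, 117 and 147), Hoxb2, Hoxd1 and Hoxb3, by 1.17, 1.00, 0.83 and 0.70. All 4 had no overlap between the times, as had 19.1% of all genes tested in the upward direction. Of 8 central genes, only Hoxc4 was called, from 7.27, 1.96 and 1.87 to 28.5, 10.4 and 30.4. The posterior list also held Cdx and Evx genes, which lie outside the posterior Hox genes. Of its 8 genes measured, with 11 more below the filter, Evx1 and Cdx2 rose and Hoxd13 fell by 0.70. No posterior Hox gene was called higher. Anterior and posterior lists were not compared by a test.

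Genes of the epithelial to mesenchymal transition moved in opposite directions by type. Of 21 mesenchymal genes, 17 rose and none fell. Cdh2, the mesodermal cadherin, went from 616, 732 and 865 to 2411, 2355 and 2558 (1.70 ± 0.114). Cxcr4, a chemokine receptor of migrating cells, went from 78.0, 92.2 and 123 to 428, 399 and 402 (1.78 ± 0.125). Zeb1, a repressor of epithelial genes, rose by 1.46 ± 0.157 and Cdh11 by 1.38 ± 0.129. Of 27 epithelial genes, 16 fell and 3 rose. Grhl2, an activator of epithelial junction genes, fell from 341, 389.6 and 442 to 181, 184 and 145 (-1.06 ± 0.114, adjusted p = 3.06e-07), although only 1 of its 4 kept probe sets was called. The falls also took in Cdh1, Epcam, Esrp1, Esrp2 and Ovol2. The 3 epithelial genes that rose, Krt19 (2.00), Dsp (1.47) and Krt8 (1.09), encode keratins and a desmosomal protein.

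Matrix genes were mixed, with 10 of 29 higher and 7 lower. Hapln1, a linker of hyaluronan matrix, rose from 10.8, 13.0 and 11.9 to 132, 112 and 126 (1.82 ± 0.106). Fbn2 rose by 1.26, Fbln2 by 0.94 and Has2, which makes hyaluronan, by 0.84. Markers of the feeder fibroblasts are part of this picture. Of 20 measured, 3 rose and 8 fell, Timp1 and Postn falling by 0.78 and 0.69, and the summed signal was 3434 to 3706 at 24 h and 3618 to 3974 at 48 h. Those ranges overlapped, whereas the uninduced sums were 2443 to 2836 and 2315 to 2397. The part of feeder RNA in the matrix and mesenchymal changes was not tested. Of 17 contractile genes, 4 rose, among them Tagln (0.67) and Tpm1 (0.60), and Myl9 and Csrp2 fell by 0.62 and 0.57.

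Most called members of the pluripotency and epiblast lists fell. All 14 core pluripotency genes were measured, and 10 fell, 4 were not called and none rose. The median was -1.28 under induction and -0.43 without doxycycline, where 10 fell and 3 rose. Sox2 went from 3134, 3102 and 3351 to 977, 1171 and 988, a log2 change of -1.59 ± 0.0750 (adjusted p = 1.84e-12). Nanog was among those not called, at -0.10 ± 0.0806. In the naive list 9 of 19 fell, led by Nr0b1, Zfp42 (-1.65 ± 0.0974) and Fbxo15 (-1.56 ± 0.140), and 2 rose. The latter were Tbx3 and Lifr, of which Tbx3 is also in the lateral mesoderm list. The naive median was -0.31 under induction and -0.59 without doxycycline, where 12 fell and 1 rose. In the primed epiblast list 9 of 14 fell, led by Pou3f1, Slc7a3 (-1.55 ± 0.126) and Dnmt3a (-1.03 ± 0.0853), and 3 rose, led by Fst (1.35 ± 0.158), an activin antagonist. Of 12 germline genes 8 fell, led by Mael (-1.53) and Sycp3 (-1.09), and their summed signal went from 6850 to 7369 at 24 h to 4748 to 4899 at 48 h. Without doxycycline the germline sum fell as well, from 6665 to 7074 at 24 h to 4217 to 4381 at 48 h. The DNA methylation list had 4 of 10 lower, Dnmt3l (-1.53), Dnmt3a, Tet1 (-0.75) and Dnmt3b (-0.50), and none higher. The Dnmt3b call was lost without 48 h replicate 1 (adjusted p = 0.0702).

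Markers of other cell types moved too. In the definitive endoderm list 7 of 15 rose and 3 fell. Krt19, Gata6, Cxcr4 and Sox17 rose by 2.00, 1.81, 1.78 and 1.74, of which Gata6 and Cxcr4 are also made in mesoderm, and Trh fell by 1.49. Foxa2, the endoderm and node regulator, read 122, 66.0 and 139 at 24 h and 116, 218 and 169.6 at 48 h, which overlapped. Its call (0.51 ± 0.175, adjusted p = 0.0343) was lost without 24 h replicate 2 (0.27, adjusted p = 0.266), without 48 h replicate 2 (0.34, adjusted p = 0.201) or without 48 h replicate 3 (adjusted p = 0.0909). Extraembryonic endoderm genes rose in 7 of 16 cases and fell in 2, with Col4a1 at 1.00 and Rhox5 at -1.77, and their sum went from 4841 to 5111 to between 5788 and 6420. Trophoblast genes rose in 6 of 11, led by Krt8, Cdx2 (0.97) and Hand1 (0.95), which are not particular to that lineage, and their sum went from 1867 to 1986 at 24 h to 2762 to 3636 at 48 h. Of 14 neural genes 5 fell and 2 rose, with Sox2, Neurod1 (-1.51), Sox3 (-1.39) and Tubb3 (-1.29) the largest, and the sum went from 4234 to 4570 to between 1838 and 2078. Sox2, also in the core pluripotency list, made up most of that sum on each induced array, so the sum largely follows Sox2. The median change of the neural list was -0.16 under induction and -0.15 without doxycycline. Without doxycycline the trophoblast sum also rose, from 1474 to 1763 at 24 h to 2854 to 3259 at 48 h. The neural sum also fell there, from 4660 to 5116 to between 3084 and 3293. The uninduced extraembryonic endoderm sums, 4650 to 5293 and 4722 to 5047, overlapped. The part of these cell types in the other changes was not tested.

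Growth factors and their receptors rose in 16 of 25 cases and fell in 4. Beyond Igf2, Kdr and Cxcr4 the largest was Igfbp3, an Igf-binding protein, from 300.0, 343 and 285 to 1111, 904 and 1184 (1.68 ± 0.0925). Imprinted genes had called members in 1 direction in both courses. Without doxycycline 11 of 23 were higher (median 0.2) and under induction 13 (median 0.35), with none lower in either. Peg3 went from 878, 1079 and 1226 to 2964, 2695 and 2634 and Phlda2, a placental growth restrictor, from 1104, 1046 and 910.2 to 3008, 1893 and 2804. Both were higher on every later array (1.37 ± 0.134 and 1.28 ± 0.127). Of 16 Eph and ephrin genes 7 rose and 1 fell. The risers were the ephrins Efna1 (1.12), Efnb3 (0.79), Efna5 (0.78), Efna3 (0.73), Efna4 and Efna2 and the receptor Epha1, and the receptor Epha2 fell. Among 10 growth regulators, Hmga2 (1.95) and Myc (0.86) rose and Mycn and Trim6 fell by 0.57 and 0.55.

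Of 23 S-phase genes 10 fell and 1, Ccne2, rose by 0.68. Ccne1, the other E-type cyclin, read 1662, 1723 and 1678 at 24 h and 338, 1090 and 1014 at 48 h, so replicate 1 stood well below the others. Its fall of 1.18 on the log2 scale was lost without that array (-0.67, adjusted p = 0.0837). Chaf1b was called at -0.39 with overlapping arrays, and lost its call when any 1 of 4 arrays was left out (adjusted p up to 0.118). Mitotic genes were mostly not called (20 of 23), with Cenpe at 0.54, Cdc20 at -0.23 and Nusap1 at -0.29, the last not called when any 1 of 3 arrays was left out (adjusted p up to 0.150). Of 20 p53 targets and cell cycle inhibitors 7 rose, led by Perp (0.54), Btg2 (0.50) and Ccng1 (0.39), and Cdkn2a fell by 0.51.

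Of 25 glycolysis and hypoxia genes 18 were not called. Ndrg1 (1.02), P4ha1 (0.90) and Egln3 (0.89) rose and Pdk1 fell by 0.79, with the calls of Ndrg1 and Egln3 lost without 24 h replicate 3 (adjusted p = 0.0685 and 0.0733) or without 48 h replicate 1 (adjusted p = 0.0665 and 0.0815). Cholesterol synthesis genes rose in 8 of 16 cases, with none lower. Cyp51 went from 660.4, 687 and 638 to 952, 936 and 1010 (0.52 ± 0.0688) and Srebf2, which controls the pathway, and Nsdhl rose by 0.51 and 0.48. Dhcr7 (0.52) lost its call when any 1 of 3 arrays was left out (adjusted p up to 0.158). In the interferon and antigen processing list Tapbp (0.56) and Tap1 (0.50) rose, and Bst2 and Ifitm3 fell by 0.88 and 0.65. Of 19 stress and immediate early genes 7 rose, led by Hspa1a (0.89), Jun (0.82), Fos (0.63) and Hspa1b (0.61). Hspa1a and Hspa1b are near-identical genes and their signals may be shared. Of 17 ribosome biogenesis genes 14 were not called, and Nhp2 (-0.28), Nop56 (-0.21) and Wdr12 (-0.21) were lower, with Nop56 close to the threshold (adjusted p = 0.0472, and up to 0.217 with 1 array left out).

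The largest differences from the uninduced course were upward in Pmp22, Foxf1, Igf2, Hand2 and Bmp4 and downward in Foxa2, Aplnr, Prickle1, Eomes and Cer1. Across genes, the 2 courses correlated with Pearson's r = 0.718 and Spearman's rho = 0.625, on arrays they do not share, where genes are not independent replicates. Of the 15 largest rises, 9 were larger than without doxycycline by the test of the difference, and 6 were not called different. Of the 15 largest falls, 7 were larger under induction and 8 were not called different. In the uninduced course 11 of these 15 rises were also called higher, and all 15 falls were also called lower.

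**Figure D3:**
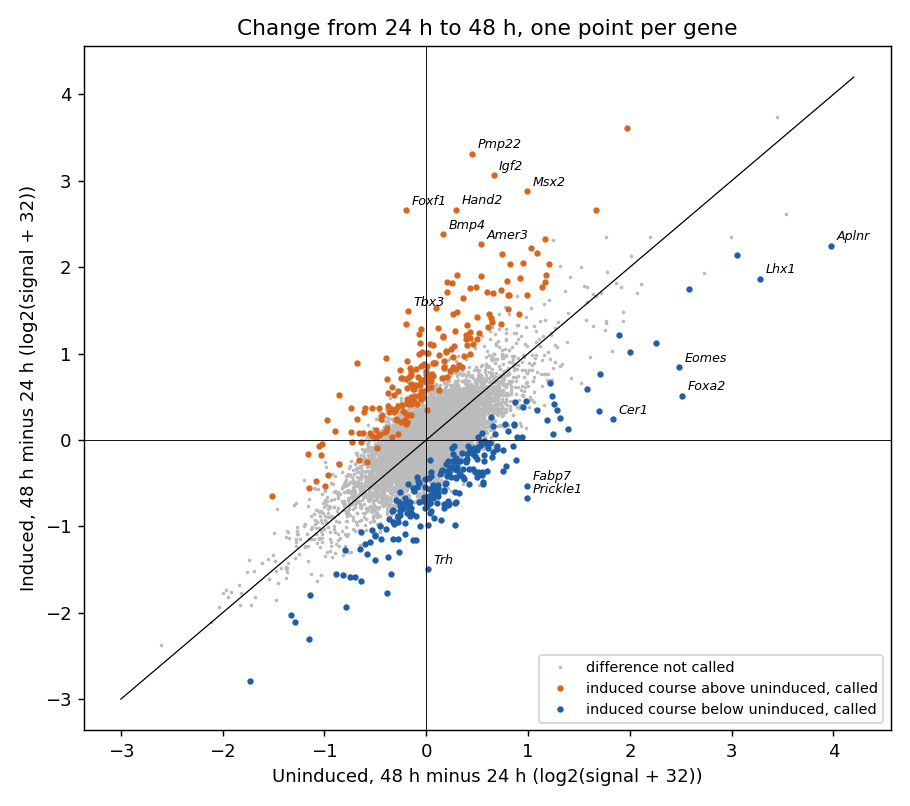
Log2 change from 24 h to 48 h in uninduced (horizontal) and induced (vertical) cultures, 1 point per gene tested, with the line of equal change. Orange points (209) had a higher and blue points (235) a lower log2 change under induction than without it, by the test of the difference. The 8 largest of each are named, from Pmp22 and Foxf1 at 2.86 to Foxa2 at -2.0.

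Pmp22 and Foxf1 differed most, both by 2.86 on the log2 scale (SE 0.251 and 0.301, adjusted p = 7.76e-07 and 6.82e-06). In uninduced cultures Pmp22 averaged 52.2 at 24 h and 86.3 at 48 h and Foxf1 16.2 and 9.89, and neither change passed the test. Igf2 differed by 2.40 ± 0.200, with uninduced means of 144 and 247, Hand2 by 2.37 ± 0.221, with means of 7.70 and 16.6, and Bmp4 by 2.21 ± 0.328, with means of 68.2 and 83.2. These genes thus stayed low or rose little without doxycycline. Msx2 (1.89 ± 0.205) did rise in the controls, by 0.99. Amer3, a Wnt pathway scaffold gene, went from 20.9, 23 and 16.1 to 290.0, 160.3 and 221 under induction and differed by 1.73 ± 0.208. Tbx3, a T-box repressor of lateral mesoderm, went from 160.2, 147 and 169.6 to 539, 432 and 542 and differed by 1.67 ± 0.201. No adjusted p among the 16 largest differences exceeded 0.00496.

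Foxa2 had the largest difference downward, -2.0 ± 0.247 (adjusted p = 4.05e-05), with uninduced means of 109 at 24 h and 772 at 48 h. Cer1, a secreted antagonist of anterior endoderm, showed the same pattern (-1.59 ± 0.316). It read 49.3, 55.8 and 134 and then 75.0, 127 and 82.5 under induction, which overlapped and was not called (adjusted p = 0.484), while the uninduced means were 79.2 and 364. Without 24 h replicate 3, the high array, the induced change of Cer1 was 0.56 and called (adjusted p = 0.0426). Eomes, the T-box gene of endoderm and early mesoderm, rose in both cultures. Its induced arrays read 1241, 1522 and 1595 and then 1919, 3286 and 2849 (0.84 ± 0.164), from a mean of 407 at 12 h, while the uninduced means were 485 and 2780 (difference -1.64 ± 0.232). By 48 h the group means of Eomes were therefore near each other, after a higher start under induction.

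**Figure D4:**
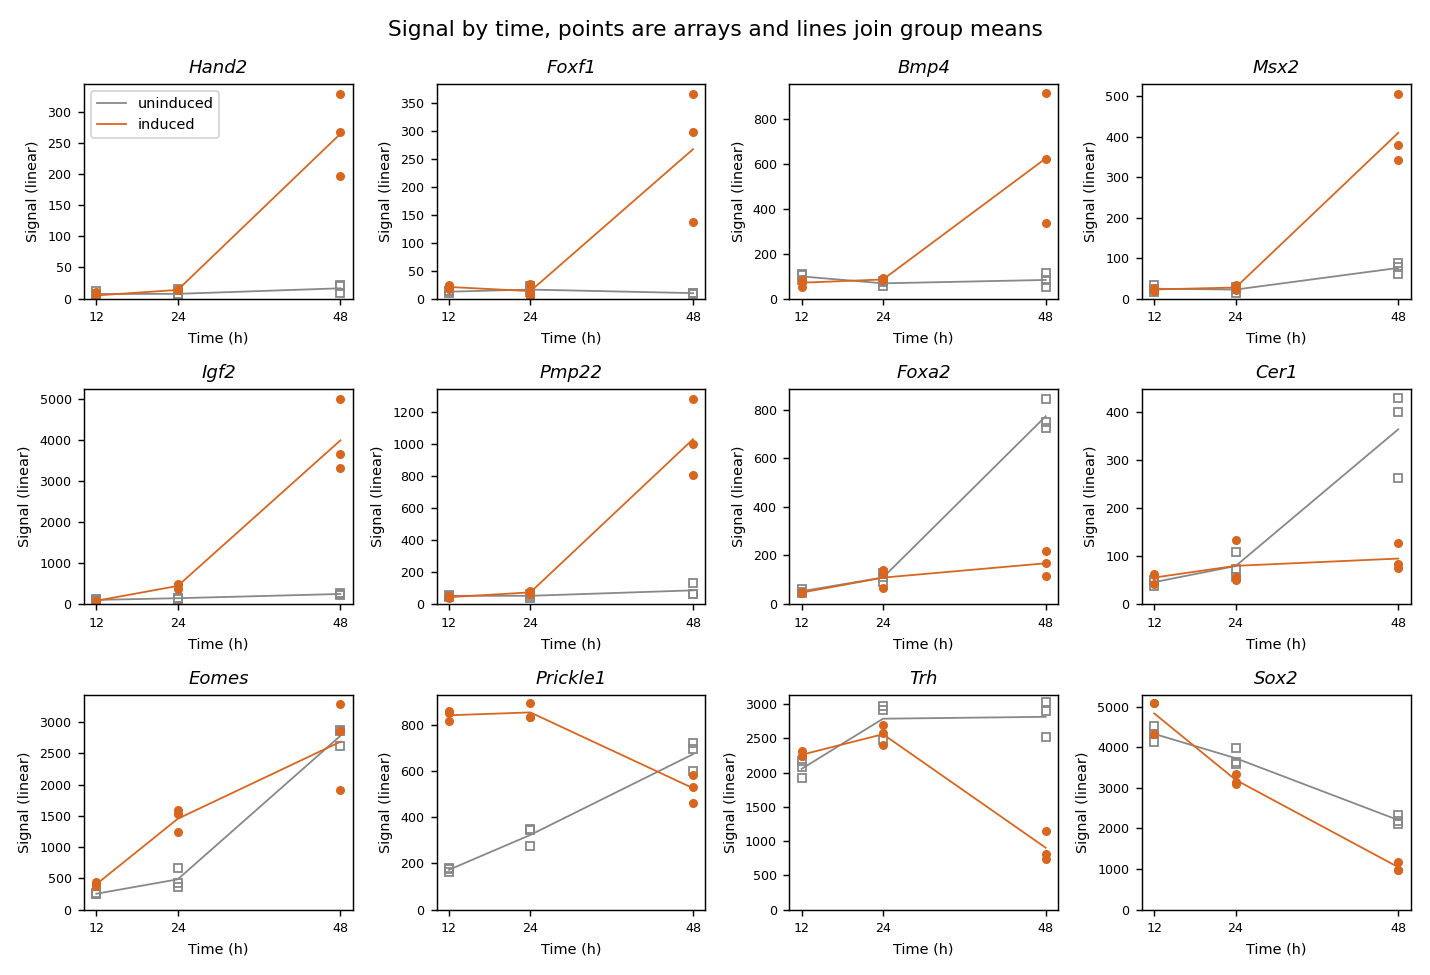
Signal on a linear axis against hours after doxycycline was or was not added, for 12 genes, with points for arrays (3 per time), lines through group means, orange for induced and grey for uninduced. Hand2, Foxf1, Bmp4, Msx2, Igf2 and Pmp22 rise after 24 h in induced cultures, Foxa2 and Cer1 rise in uninduced ones, and Prickle1 starts at 841 at 12 h of induction and ends at 526.

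Aplnr and Lhx1 rose in both cultures, from higher induced means at 24 h. Aplnr averaged 670.0 at 24 h and 3247 at 48 h of induction, against 77.5 and 1690 without it, and differed in course by -1.73 ± 0.273. Lhx1, a LIM homeobox gene of the node and lateral mesoderm, read 231, 261 and 326 and then 1005, 1174 and 1031, against uninduced means of 77.9 and 1042, with a difference of -1.41 ± 0.234. Prickle1, a planar polarity gene, went the opposite way in the 2 cultures. It fell from 832, 894 and 834 to 462, 583 and 531 under induction (-0.67 ± 0.0929) and rose from 323 to 673 in the controls (0.99 ± 0.0929), a difference of -1.66 ± 0.131 (adjusted p = 3.26e-07). Of the 3 kept probe sets of Prickle1, 1 was called in the induced course. Fabp7, a fatty acid binding protein, likewise fell from 303, 319.7 and 359.9 to 179, 256 and 221 and rose in the controls by 0.99 (difference -1.52 ± 0.197), although its induced fall was lost without 48 h replicate 1 (adjusted p = 0.0560). Trh, the thyrotropin-releasing hormone gene, went from 2693, 2407 and 2586 to 746, 1151 and 814 under induction. In the controls Trh stayed at 2789 and 2816, a difference of -1.51 ± 0.155.

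By list, the courses differed in 1 direction in several groups, to be read against the 1.46% and 1.65% of all genes called different upward and downward. Here further up or down means a higher or lower log2 change than in the controls, so a gene further down may still have risen. The Bmp, Nodal and Tgf-beta list had 10 of 25 members further up, Tgfb1, Bmp2, Bmp4, Bmp5, Bmper, Id1, Id2, Id3, Smad6 and Bambi, and only Lefty1 further down. The 4 anterior Hox genes that rose were also called different from the controls, where the median change of the list was -0.01. Of these differences, that of Hoxb1 was lost with an offset of 16 (adjusted p = 0.0683), and those of Hoxb3 and Hoxd1 with single arrays left out (adjusted p up to 0.0898 and 0.107). The imprinted list had 6 of 23 further up and none down. In the presomitic list 5 of 24 were further down, Dll3, Dact1, Cyp26a1, Hes6 and Prickle1, and Nkd1 was further up. Of the 5, Dact1 and Cyp26a1 were called higher in the induced course, Hes6 and Prickle1 lower, and Dll3 was not called. The Nkd1 difference was lost with averaged probe sets (0.33, adjusted p = 0.258) and with single arrays left out. Streak and definitive endoderm lists had 6 members each with a lower change than in the controls and none with a higher one, among 22 and 15 measured. Gsc, Foxa2 and Cer1 were in both, with Eomes, Lhx1 and Tdgf1 in the former and Sox17, Trh and Otx2 in the latter. Gsc, Foxa2, Eomes, Lhx1 and Sox17 were called higher in the induced course, so they rose less than in the controls. Trh and Otx2 were called lower there, and Cer1 and Tdgf1 were not called. The primed epiblast list had 8 of 14 further down, with medians of -0.45 under induction and 0.30 without it, and the epithelial list had 7 of 27 further down, among them Cdh1 and Epcam. The p53 list had 5 of 20 further up, with a median of 0.07 against -0.37 in the controls, and no S-phase or mitosis gene was called different.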

How the data were processed

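RNA (100 ng per sample, per the labels) was read on Affymetrix mouse arrays, and GCOS is the software in the submitters' processing notes. The intensity values were used as deposited by the authors. The probe set algorithm is not given in the sources used here, and the arrays used share a 2% trimmed mean of 150. Of 45101 probe sets, 64 controls were left out, 34945 were matched to 1 gene (RefSeq names), 932 to several and 9160 to none. From the deposited intensity, log2(signal + 32) was computed here. Probe sets were kept where a group mean reached the 40th percentile (13.2), and 1 per gene, the brightest, was tested. Probe sets of an a, s or x type, among them those of Aplnr, Sox17, Krt8, Dsp, Wnt3, Wnt5b, Hes6, Dtx1, Fgf8, Meis2, Fbln2, Dnmt3b, Dnmt3l, Hmga2, Myc, Ccne1, Ndrg1, Pdk1, Hspa1b and Morc1, can match other transcripts. limma 3.58.1 (R 4.3.3) fitted 6 group means over 18 arrays with an intensity trend, and p-values were adjusted over 14282 genes. The code was tested on simulated data. Genes named are Msgn1, the 15 largest non-overlapping rises and falls, the 8 largest differences per direction and up to 4 called members per list, with unnamed clones passed over. Further called members are listed without values, chosen after their values were seen. The members and lists were chosen with earlier results of these data known. Same-numbered arrays of the 2 induced times did not deviate together (correlations 0.031, -0.046 and -0.10), so numbers were not used as pairs.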

Additional observations from a re-analysis of the deposited data

Results flagged for a closer look

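In 63 of the 160 named genes the induced course from 24 h to 48 h differed from the uninduced one by limma's test of the difference, at adjusted p-values up to 0.0478. The values are the induced minus the uninduced log2 change, 37 upward and 26 downward. Dixon's outlier test was not run on groups of 3 arrays, which were instead checked by leaving out single arrays.

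Bmp signalling and lateral mesoderm genes moved further up under induction, namely Foxf1 (2.86), Hand2 (2.37), Bmp4 (2.21), Msx2 (1.89), Tbx3 (1.67), Bmper (1.10) and Bmp2 (0.99). Vascular and mesenchymal genes among them were Kdr (1.21), Zeb1 (1.19), Sox7 (0.91) and Hey2 (0.74). The matrix genes were Hapln1 (1.62), Fbln2 (1.34) and Has2 (0.49). Imprinted and growth genes were Igf2 (2.40), Asb4 (1.63), Phlda2 (1.33), Igfbp3 (0.88) and Myc (0.85). The Hox genes were Hoxb2 (1.07), Hoxb1 (0.78), Hoxb3 (0.71) and Hoxd1 (0.66), with their cofactor Meis2 (1.00). Wnt pathway genes were Amer3 (1.73), Apcdd1 (1.33), Nkd1 (0.71) and Wnt2 (0.59). Others were Pmp22 (2.86), Zfp703 (1.17), Cyp51 (0.59), the p53 target Ccng1 (0.77), the heat shock genes Hspa1b (0.96) and Hspa1a (0.81), and the antigen processing genes Tapbp (0.62) and Tap1 (0.61). Ifitm3 (0.86) fell in both courses, less so under induction. By list, Wnt genes did not all move this way. Of 27 Wnt ligands, receptors and planar polarity genes, 1 was further up and 6 further down. Of 20 Wnt targets and feedback genes, 3 were further up and 3 further down.

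Endoderm, streak and Nodal pathway genes moved less far up, or down, under induction, namely Foxa2 (-2.0), Eomes (-1.64), Cer1 (-1.59), Trh (-1.51), Lhx1 (-1.41), Lefty1 (-1.06) and Sox17 (-0.83). Epiblast and pluripotency genes among these were Foxd3 (-1.39), Sox2 (-0.84), Utf1 (-0.81), Pou3f1 (-0.70), Dnmt3b (-0.69) and Slc7a3 (-0.66). Receptors, polarity and Notch genes were Aplnr (-1.73), Prickle1 (-1.66), Hes6 (-0.71) and Dtx1 (-0.60). The remainder were Fabp7 (-1.52), Myrf (-1.15), Enpp3 (-1.14), Cyp26a1 (-0.91), the neural gene Sox3 (-0.88), the meiotic gene Sycp3 (-0.88), Abcc4 (-0.66), Bst2 (-0.61) and Pdk1 (-0.56). At 24 h the induced and uninduced mean signals were 670.0 and 77.5 for Aplnr (3247 and 1690 at 48 h) and 853 and 323 for Prickle1.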

How the results depend on the processing

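No count of called genes moved by over 1.5 times under any alternative run (quantile normalization, other filters, offsets of 16 and 64, averaged probe sets per gene, other variance models, the arrays of the comparison alone, each probe set tested, single arrays left out), and no named gene reversed. With 1 array left out, genes called higher in the induced course numbered 1469 to 1684 and lower 1485 to 1714. List members called numbered 186 to 204 higher and 115 to 121 lower. Differences between the courses called numbered 150 to 224 upward and 157 to 259 downward. In uninduced cultures the counts were 1361 to 1645 higher and 1248 to 1511 lower. With the replicate number as a block 3658 genes were called, which included 3581 (97%) of the reported calls in the induced course. With 1 induced array left out, the share of the reported calls kept ranged from 75.9% (without 48 h replicate 1) to 85% (without 48 h replicate 2). It was 83% with the arrays of the comparison alone and 83.7% with averaged probe sets. Of 160 named genes, 146 kept their side of the threshold in every setting, and the others are Nop56, Foxa2, Nusap1, Gata1, Chaf1b, Ndrg1, Klf1, Egln3, Dhcr7, Wdr12, Ccne1, Fabp7, Dnmt3b and Cer1. Of the 63 differences 43 held in all settings. Those of Zfp703, Utf1, Sox3, Nkd1, Tapbp and Slc7a3 were lost with averaged probe sets (0.50, -0.29, -0.54, 0.33, 0.26 and -0.66), that of Hoxb1 with an offset of 16, and that of Hey2 without induced 48 h replicate 1. Those lost when single arrays were left out, some in other settings too, were also Nkd1, Slc7a3, Has2, Dnmt3b, Hspa1a, Wnt2, Tapbp, Tap1, Apcdd1, Hoxd1, Abcc4, Sox17, Hoxb3, Cyp26a1 and Bst2. Values under the offset of 32, 56.9 to 58.3% on the arrays used, hold little information on fold. With 3 arrays per group, 1 stem cell line and mixed cell types, the results describe these cultures.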
